A study of Mus musculus with 12 samples.

Results

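Transcript levels of 10 mesenchymal and epithelial-mesenchymal transition (EMT) transcription factors, Twist1, Twist2, Prrx1, Prrx2, Snai1, Snai2, Zeb1, Zeb2, Foxc1 and Foxc2, were examined in mouse cochlear glial spheres and in the neuron-containing cultures induced from them. The factors were taken by gene symbol from a table of 55487 genes, and each symbol matched 1 gene. The set was chosen by measured values, since Twist1, Prrx1 and Prrx2 were known from these same libraries to be high in one induction medium (FIBCL) against another (SCDM). The levels, differences and calls of the 10 factors are therefore given as a description. The calls use an adjusted p as a limit, but they are not a test of the set, and no conclusion is drawn from them.

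All cells came from spiral ganglia of postnatal day 4 mice on a mix background of C57Bl6 and FVB/N, with tissue of several animals of both sexes combined for each dissociation. Spheres grew in a medium with EGF (20 ng/ml), IGF (50 ng/ml) and bFGF (10 ng/ml). The other groups were plated on a coated surface and analysed after 14 days: SCDM, with BDNF and NT3 at 50 ng/ml each, SCDM/FGF, which was SCDM with bFGF (100 ng/ml), and FIBCL. FIBCL combined a bFGF-containing Neurobasal medium with Forskolin (20 μM), an activator of adenylyl cyclase, ISX9 (20 μM), I-BET (1 μM), an inhibitor of BET bromodomain proteins, Chir99021 (10 μM), an inhibitor of the kinase GSK3, and LIF (1000 U/ml). The protocol lists bFGF for this medium at both 50 and 100 ng/ml. The study's methods give a range of I-BET concentrations that begins at the one in the labels. As the protocol lists them, FIBCL differed from SCDM in base medium, in bFGF, LIF and every small molecule, and in lacking BDNF and NT3, and the parts of these components cannot be told apart. Each group held 3 libraries of poly(A) RNA, numbered as biological replicates.

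EMT is the passage of a cell from a sheet held together by E-cadherin junctions to a loose, migratory state. Snail (Snai1, Snai2) and Zeb (Zeb1, Zeb2) proteins are zinc finger repressors that bind E-box DNA and silence epithelial genes such as Cdh1, while Twist1 and Twist2 are basic helix-loop-helix (bHLH) proteins that act as dimers with E proteins. Prrx1 and Prrx2 are paired-related homeodomain proteins, and Foxc1 and Foxc2 are forkhead proteins; both pairs work in the head and limb mesenchyme, and several of these families also act in neural crest, from which glia of peripheral ganglia derive.

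Values were deposited as TPM, a transcript's share of all transcripts in a library corrected for transcript length, so levels can be compared between genes as well as between libraries. The deposited TPM values summed to 899295 to 911076 in FIBCL and to 982067 to 994845 in the other groups, and 21625 to 22281 genes per library were above 0. Sequencing depth is unknown, so no counting error could be attached to a level. Each library was multiplied by 1 factor, set so that genes well expressed everywhere had the same typical level, and the product is called scaled TPM here. This step moved the median difference of the 16016 genes tested between FIBCL and SCDM from -0.40 to -0.07 on the log2 scale, between FIBCL and SCDM/FGF from -0.31 to -0.05, and between FIBCL and spheres from -0.51 to -0.06. Differences below are in log2(scaled TPM + 1), with the standard error (SE) of the fitted model, and folds are ratios of mean scaled TPM.

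Summed levels of cell type markers differed between the groups. The summed level of 8 glial markers was 678.4 to 717.7 scaled TPM in spheres, 231.5 to 264.4 in SCDM, 221.8 to 272.2 under SCDM/FGF and 20.1 to 26.0 in FIBCL. Summed levels of 8 neuronal markers were 455.9 to 476.2 in FIBCL and at most 26.6 in any other library. A list of 10 fibroblast and otic mesenchyme markers summed to 2658.2 to 2706.2 in spheres, 5754.5 to 5992.2 in SCDM, 5294.3 to 5662.7 under SCDM/FGF and 81.7 to 86.2 in FIBCL. For 8 macrophage markers the sums were 90.7 to 108.9 in spheres, 1236.2 to 1357.9 in SCDM, 1333.6 to 1466.4 under SCDM/FGF and 157.7 to 183.1 in FIBCL. The 6 endothelial markers summed to 108.7 to 110.4 in spheres, 42.8 to 51.2 in SCDM, 264.4 to 303.1 under SCDM/FGF and 13.0 to 13.7 in FIBCL, where Emcn and Cldn5 were listed at 0 in every library. Over all libraries Emcn reached up to 264.91 deposited TPM and no other endothelial marker more than 38.05, so the highest sums rest mainly on Emcn. Lists of 6 pericyte and smooth muscle, 6 melanocyte and 6 epithelial and hair cell markers summed to at most 35.0, 9.57 and 54.4 in any library, and in FIBCL to 7.33 to 7.95, 2.73 to 4.26 and 20.7 to 21.8. Of these lists, 7 of 8 glial, 8 of 9 tested fibroblast and 7 of 8 macrophage markers were lower in FIBCL than in SCDM by the call rule given below. The remaining tested fibroblast marker, Coch, named after its value was seen, was higher, as were 6 of 6 tested neuronal markers. Among all tested genes 16.1% were called lower and 13.2% higher. Of the 6 endothelial markers 2 were lower and 1 was higher. The part of these cell types in the results was not tested, and in such bulk libraries fewer cells of a type and less RNA per cell cannot be told apart.

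Promoter windows are shown for the 4 factors that stand for the main patterns below: Twist1 and Prrx1, highest in FIBCL, Snai1, lowest in SCDM, and Foxc1, lowest in FIBCL. At least 1 window was taken for 7 of the 10 factors. None was taken for Snai2, Zeb1 or Foxc2, which does not show that RefSeq lists no start for them. Windows run from 250 bases before to 50 bases after a RefSeq transcript start (GRCm38.p6). They lie at chr12:33957421-33957720 on the plus strand (Twist1), chr1:163313601-163313900 on the minus strand (Prrx1), chr2:167537945-167538244 on the plus strand (Snai1) and chr13:31806396-31806695 on the plus strand (Foxc1). Capitals mark a match to a searched motif, and a window without capitals holds none.
Twist1: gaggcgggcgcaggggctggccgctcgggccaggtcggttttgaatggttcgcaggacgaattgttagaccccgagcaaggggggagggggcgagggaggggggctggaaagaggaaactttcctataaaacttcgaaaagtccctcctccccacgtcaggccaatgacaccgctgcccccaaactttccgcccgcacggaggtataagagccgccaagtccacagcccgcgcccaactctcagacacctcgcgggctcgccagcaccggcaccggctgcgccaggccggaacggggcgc
Prrx1: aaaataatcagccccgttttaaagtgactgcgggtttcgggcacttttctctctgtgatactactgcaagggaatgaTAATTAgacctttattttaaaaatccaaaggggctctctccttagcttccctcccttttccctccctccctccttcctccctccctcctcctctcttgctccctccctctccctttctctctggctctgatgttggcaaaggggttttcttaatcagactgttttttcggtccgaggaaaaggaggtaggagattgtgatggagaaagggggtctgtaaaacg
Snai1: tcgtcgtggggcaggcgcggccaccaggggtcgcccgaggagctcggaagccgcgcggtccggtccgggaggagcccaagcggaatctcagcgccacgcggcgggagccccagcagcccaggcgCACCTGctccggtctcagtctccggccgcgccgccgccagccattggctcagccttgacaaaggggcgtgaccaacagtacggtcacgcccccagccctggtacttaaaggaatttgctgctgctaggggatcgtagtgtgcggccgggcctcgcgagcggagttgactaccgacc
Foxc1: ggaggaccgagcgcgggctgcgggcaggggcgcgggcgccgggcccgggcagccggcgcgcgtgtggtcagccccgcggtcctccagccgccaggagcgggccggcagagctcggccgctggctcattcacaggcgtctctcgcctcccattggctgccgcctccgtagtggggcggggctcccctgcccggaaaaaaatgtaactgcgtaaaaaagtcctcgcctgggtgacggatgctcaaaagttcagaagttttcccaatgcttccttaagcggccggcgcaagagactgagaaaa

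The motifs searched on both strands were the E-box CAGGTG, which Snail and Zeb proteins bind, any E-box CANNTG, which includes it, the homeodomain core TAATTA, the forkhead motif TGTTTAC, the cyclic AMP response element TGACGTCA and the TCF/LEF motif CTTTGAT. The Snai1 window held CAGGTG once, read on the other strand as CACCTG from base 125, and the same match counts as its only CANNTG. The Prrx1 window held TAATTA once, from base 78. No other match was found in the windows of the 4 factors, and none in those of Twist2, Prrx2 or Zeb2. Among all 32851 windows of this length, 20.2% held CAGGTG, 72.3% CANNTG, 5.29% TAATTA, 3.65% TGTTTAC, 1.79% TGACGTCA and 3.73% CTTTGAT. GC content was 66.0% for Twist1, 47.7% for Prrx1, 70.0% for Snai1 and 67.3% for Foxc1.

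The factors took different courses, in the Twist, Prrx and Snail pairs also between the members of a pair. Twist1 and Prrx1 were highest in FIBCL, Prrx2 and Snai1 were lowest in SCDM, Snai2 was highest in SCDM, and Zeb1, Zeb2, Foxc1 and Foxc2 were lowest in FIBCL. The plot of levels by library shows all 10.

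**Figure D1:**
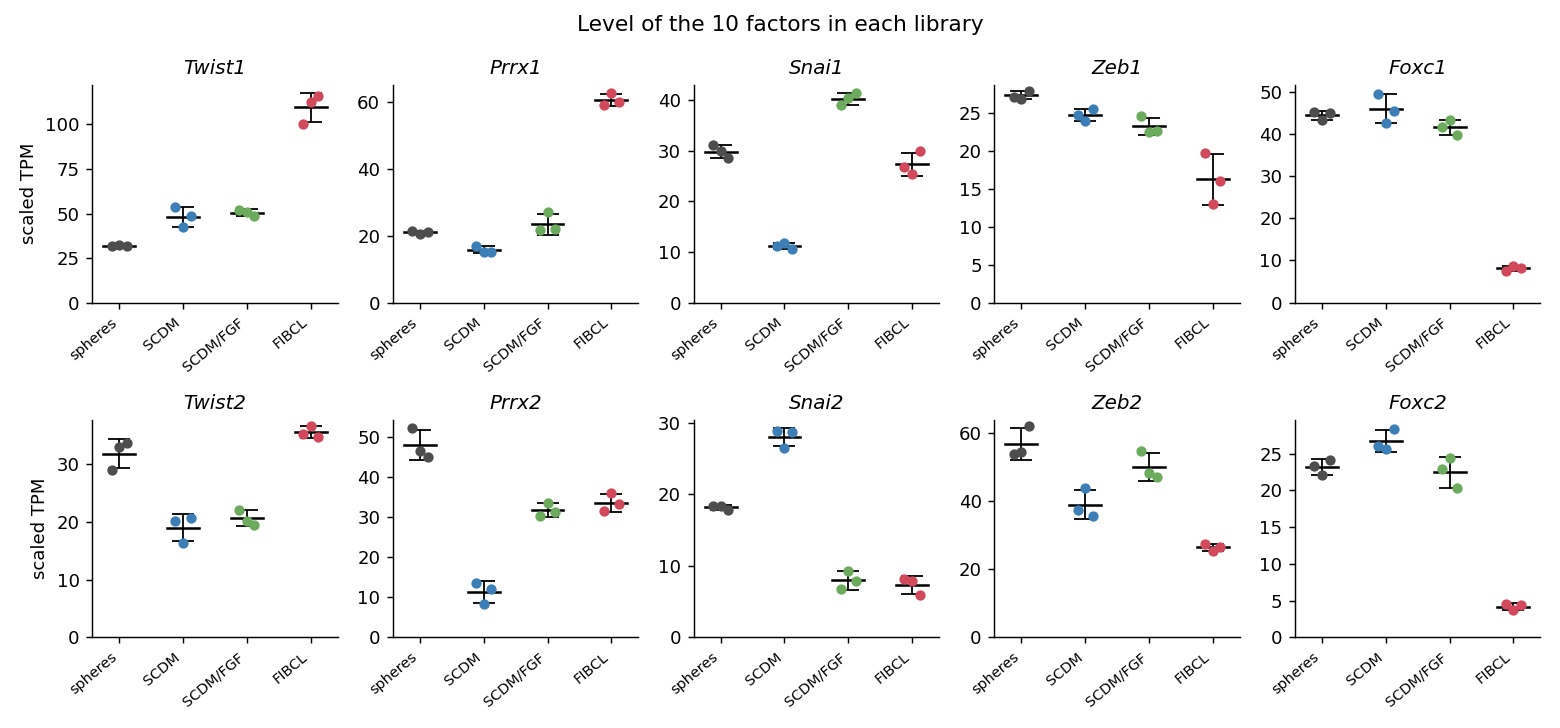
Level of the 10 factors in scaled TPM (vertical axes, each from 0) in spheres, SCDM, SCDM/FGF and FIBCL. Coloured points are the 3 libraries of a group, and black lines are the mean with its SD. Twist1 reached 100.5 to 115.8 in FIBCL against at most 53.6 elsewhere, while Foxc1 was at most 8.6 in FIBCL against at least 39.7 elsewhere.

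Twist1 (ENSMUSG00000035799, chromosome 12, 33957671 to 33959829, plus strand, GENCODE M21 on GRCm38) is required for cranial mesenchyme and skull formation. Its level was 31.7, 32.5 and 31.8 scaled TPM in the 3 sphere libraries, 53.6, 42.4 and 48.5 in SCDM, 52.2, 50.8 and 48.6 under SCDM/FGF, and 100.5, 112.8 and 115.8 in FIBCL. Every FIBCL library was above every other library, every sphere library was below all others, and SCDM and SCDM/FGF overlapped. FIBCL exceeded SCDM 2.28-fold (1.18 ± 0.08, SE), SCDM/FGF 2.17-fold (1.10 ± 0.08) and spheres 3.43-fold (1.74 ± 0.08). From the deposited TPM these differences were 0.78, 0.79 and 1.21, in the same direction. SCDM was 0.57 ± 0.08 and SCDM/FGF 0.64 ± 0.08 above spheres. At 109.7 ± 8.16 scaled TPM (SD, n = 3), Twist1 in FIBCL was the highest level of any of the 10 factors in any group.

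Twist2 (ENSMUSG00000007805, chromosome 1, 91801461 to 91848028, plus strand), a close relative known from dermal mesenchyme, did not share the course of Twist1. It measured 29.0, 32.9 and 33.6 scaled TPM in spheres, 20.1, 16.4 and 20.6 in SCDM, 22.1, 20.1 and 19.5 under SCDM/FGF, and 35.3, 36.7 and 34.7 in FIBCL. SCDM and SCDM/FGF, which overlapped, were below spheres by -0.72 ± 0.09 and -0.61 ± 0.09, where Twist1 was above. FIBCL was 0.87 ± 0.09 above SCDM and 0.76 ± 0.09 above SCDM/FGF. Against spheres, the FIBCL difference of 0.16 ± 0.09 changed sign to -0.37 with the deposited TPM. Twist1 made up 50.2 ± 1.87% (SD, n = 3) of the summed TPM of the pair in spheres, 71.7 ± 1.30% in SCDM, 71.1 ± 0.764% under SCDM/FGF and 75.5 ± 1.49% in FIBCL. This share does not depend on the scaling, and it was lower in every sphere library than in any library of the induced groups.

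Prrx1 (ENSMUSG00000026586, chromosome 1, 163245119 to 163313710, minus strand) marks limb and craniofacial mesenchyme and has been described as an inducer of EMT. Levels were 21.3, 20.4 and 21.2 scaled TPM in spheres, 17.0, 15.1 and 15.3 in SCDM, 21.6, 27.2 and 21.9 under SCDM/FGF, and 59.1, 62.8 and 60.1 in FIBCL. The 4 groups did not overlap, with FIBCL highest and SCDM lowest, although spheres and SCDM/FGF were separated by little. FIBCL exceeded SCDM 3.84-fold (1.88 ± 0.08), SCDM/FGF 2.58-fold (1.34 ± 0.08) and spheres 2.89-fold (1.49 ± 0.08). The same differences were 1.49, 1.03 and 0.96 with the deposited TPM. Without FIBCL in the comparison, Prrx1 was 0.54 ± 0.08 higher under SCDM/FGF than in SCDM, and its difference between SCDM/FGF and spheres, 0.15 ± 0.08, changed sign to -0.07 with the deposited TPM.

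Prrx2 (ENSMUSG00000039476, chromosome 2, 30834972 to 30881251, plus strand), the partner of Prrx1 in craniofacial and limb development, was highest in spheres. It stood at 52.1, 46.6 and 44.9 scaled TPM in spheres, 13.6, 8.3 and 12.0 in SCDM, 30.2, 33.6 and 31.2 under SCDM/FGF, and 31.5, 36.0 and 33.2 in FIBCL. All SCDM libraries were below all others, and SCDM/FGF and FIBCL overlapped. SCDM was 4.23-fold below spheres (-2.01 ± 0.14), SCDM/FGF was 2.80-fold above SCDM (1.43 ± 0.14), and FIBCL was 2.97-fold above SCDM (1.51 ± 0.14). FIBCL differed from SCDM/FGF by 0.08 ± 0.14, a value that turned to -0.23 with the deposited TPM, and was -0.50 ± 0.14 below spheres. The excess of Prrx2 in FIBCL was therefore one over SCDM, and not over SCDM/FGF or spheres. Prrx1 was 30.5 ± 1.55% of the pair in spheres, 58.7 ± 5.16% in SCDM, 42.5 ± 1.90% under SCDM/FGF and 64.4 ± 0.844% in FIBCL.

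Snai1 (ENSMUSG00000042821, chromosome 2, 167538195 to 167542814, plus strand) encodes Snail, an unstable repressor of Cdh1 that GSK3 marks for degradation. It measured 31.0, 29.9 and 28.5 scaled TPM in spheres, 11.1, 11.8 and 10.6 in SCDM, 39.0, 40.3 and 41.4 under SCDM/FGF, and 26.7, 25.4 and 29.9 in FIBCL. SCDM libraries were the lowest and SCDM/FGF libraries the highest, with spheres and FIBCL overlapping between them. SCDM/FGF exceeded SCDM 3.61-fold (1.76 ± 0.07) and spheres 1.35-fold (0.42 ± 0.07). FIBCL was 2.45-fold above SCDM (1.22 ± 0.07, or 0.84 with the deposited TPM) and -0.54 ± 0.07 below SCDM/FGF.

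Snai2 (ENSMUSG00000022676, chromosome 16, 14705852 to 14709385, plus strand) encodes Slug, the Snail family member known from neural crest. Its libraries read 18.4, 18.4 and 17.8 scaled TPM in spheres, 28.8, 26.5 and 28.7 in SCDM, 6.7, 9.3 and 7.9 under SCDM/FGF, and 8.2, 7.9 and 5.9 in FIBCL. SCDM and SCDM/FGF stood the other way round than for Snai1, with SCDM highest, spheres next, and SCDM/FGF and FIBCL lowest and overlapping. SCDM/FGF was 3.51-fold below SCDM (-1.70 ± 0.12) and FIBCL 3.82-fold below it (-1.81 ± 0.12). The difference between FIBCL and SCDM/FGF was -0.11 ± 0.12, and leaving out single libraries moved it between -0.21 and 0.02. Snai2 made up 71.5 ± 1.99% of the pair in SCDM, 37.9 ± 0.613% in spheres, 16.5 ± 2.11% under SCDM/FGF and 21.2 ± 4.12% in FIBCL. The more abundant Snail gene was therefore Snai2 in SCDM and Snai1 in spheres, SCDM/FGF and FIBCL. The part of any medium component in this was not tested.

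Both Zeb genes were lower in FIBCL, by less than the Foxc genes. Zeb1 (ENSMUSG00000024238, chromosome 18, 5591860 to 5775467, plus strand), a repressor of epithelial genes that is itself restrained by microRNAs of the miR-200 family, measured 27.2, 26.9 and 28.0 scaled TPM in spheres, 24.8, 24.0 and 25.6 in SCDM, 24.6, 22.6 and 22.7 under SCDM/FGF, and 19.8, 13.0 and 16.1 in FIBCL. Every FIBCL library was below every other library, and the 3 FIBCL libraries spread more (SD 3.38) than those of the other groups (SD 0.539 to 1.10). FIBCL was -0.59 ± 0.11 below SCDM, -0.51 ± 0.11 below SCDM/FGF and -0.73 ± 0.11 below spheres.

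Zeb2 (ENSMUSG00000026872, chromosome 2, 44983632 to 45117395, minus strand) has known roles in neural crest and in Schwann cell maturation. It measured 53.8, 54.3 and 62.1 scaled TPM in spheres, 37.4, 43.9 and 35.6 in SCDM, 54.7, 48.2 and 47.0 under SCDM/FGF, and 27.5, 25.4 and 26.5 in FIBCL. FIBCL libraries were again below all others, and spheres and SCDM/FGF overlapped. FIBCL was 2.14-fold below spheres (-1.07 ± 0.09), -0.89 ± 0.09 below SCDM/FGF and -0.54 ± 0.09 below SCDM. Zeb2 was 67.4 ± 1.36% of the Zeb pair in spheres, 61.0 ± 3.34% in SCDM, 68.2 ± 0.779% under SCDM/FGF and 62.2 ± 4.00% in FIBCL, a narrower range than the shares within the Twist, Prrx and Snail pairs. The antisense gene Zeb2os overlaps Zeb2 and was listed at 3.47 to 4.01 deposited TPM in spheres, 5.94 to 7.40 in SCDM, 6.41 to 8.31 under SCDM/FGF and 0.51 to 0.65 in FIBCL. The methods name an orientation mode for the TopHat alignment without saying what it does with strand, and no source used here says whether the counting used strand. Whether reads of the overlapping stretches were assigned to the right one of the 2 genes is therefore unknown. Genes annotated across Zeb1 reached at most 4.51 deposited TPM (Gm10125), and those measured across Twist2 and Prrx1 at most 0.94.

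Foxc1 and Foxc2 showed the largest differences of the 10 factors between FIBCL and the other groups. Foxc1 (ENSMUSG00000050295, chromosome 13, 31806633 to 31812476, plus strand), needed for the periocular and meningeal mesenchyme, measured 45.2, 43.4 and 45.0 scaled TPM in spheres, 49.6, 42.7 and 45.6 in SCDM, 41.8, 43.3 and 39.7 under SCDM/FGF, and 7.6, 8.6 and 8.3 in FIBCL. The 9 libraries outside FIBCL lay within a narrow band, and the FIBCL libraries far below it. FIBCL was 5.64-fold below SCDM (-2.36 ± 0.06), 5.10-fold below SCDM/FGF (-2.22 ± 0.06) and 5.46-fold below spheres (-2.32 ± 0.06). The small difference between SCDM and spheres, 0.04 ± 0.06, turned to -0.10 with the deposited TPM.

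Foxc2 (ENSMUSG00000046714, chromosome 8, 121116171 to 121118895, plus strand), a factor of lymphatic vessels and paraxial mesenchyme, followed Foxc1 at a lower level. It measured 23.3, 22.1 and 24.2 scaled TPM in spheres, 26.1, 25.6 and 28.4 in SCDM, 22.9, 24.4 and 20.3 under SCDM/FGF, and 4.6, 3.7 and 4.4 in FIBCL. FIBCL was 6.36-fold below SCDM (-2.42 ± 0.09), 5.37-fold below SCDM/FGF (-2.18 ± 0.09) and 5.53-fold below spheres (-2.22 ± 0.09). Foxc1 kept a steady share of the pair, at 65.8 ± 0.629% in spheres, 63.3 ± 2.04% in SCDM, 64.9 ± 1.17% under SCDM/FGF and 66.0 ± 3.91% in FIBCL. An annotated gene, Gm20388, overlaps Foxc2 on the same strand. The summed endothelial, glial and fibroblast markers given above were also lowest in FIBCL. Between spheres, SCDM and SCDM/FGF, the differences of Foxc1 and Foxc2 in scaled TPM lay between -0.24 and 0.19 on the log2 scale. The part of these cell types in the Foxc levels was not tested.

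**Figure D2:**
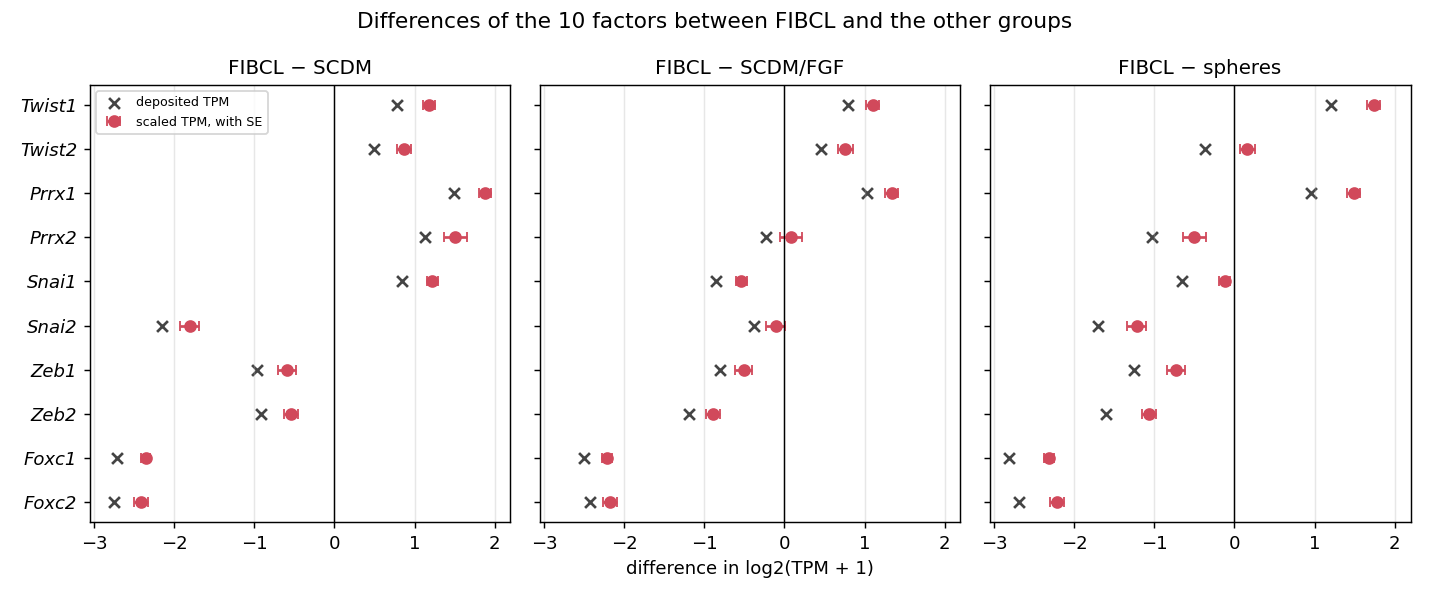
Differences of the 10 factors in log2(TPM + 1) (horizontal axis) between FIBCL and SCDM, SCDM/FGF and spheres. Circles are scaled TPM with the SE of the fit, and crosses the deposited TPM. Twist1 and Prrx1 lie right of 0 in all 3 panels on both scales and Foxc1 and Foxc2 left of it, while Twist2 against spheres (0.16 and -0.37) and Prrx2 against SCDM/FGF (0.08 and -0.23) change side.

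A gene was called different where limma's adjusted p was under 0.05 and the difference at least 1 on the log2 scale in either direction. All 10 factors were among the 16016 genes tested. Between FIBCL and SCDM, 4 of the 10 factors met these criteria as higher (Twist1, Prrx1, Prrx2 and Snai1) and 3 as lower (Snai2, Foxc1 and Foxc2), where 13.2% of all tested genes were called higher and 16.1% lower. With the deposited TPM the split was 2 higher and 3 lower, with 9.30% and 23.3% of all genes, as Twist1 and Snai1 were then under 1. Between FIBCL and SCDM/FGF, Twist1 and Prrx1 were past the limits as higher and Foxc1 and Foxc2 as lower (all genes 12.0% and 15.8%). On the deposited scale Twist1 left and Zeb2 (-1.19) joined, giving 1 higher and 3 lower beside 8.80% and 20.6% of all genes. Between FIBCL and spheres, Twist1 and Prrx1 were past the limits as higher and Snai2, Zeb2, Foxc1 and Foxc2 as lower (all genes 12.5% and 15.5%). On the deposited scale this became 1 higher and 6 lower, beside 7.87% and 26.9% of all genes, as Prrx1 left and Prrx2 (-1.03) and Zeb1 (-1.25) joined. The FIBCL comparisons share their FIBCL libraries, and nothing is read from these counts, since the same contrasts were used to choose the factors.

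Between the groups without small molecules fewer factors passed the limits, as did fewer of all tested genes. Nothing is read from this, since contrasts with FIBCL were used to choose the factors. Between SCDM and spheres, Prrx2 and Snai1 were past them as lower and none as higher (all genes 5.46% and 6.94%). For SCDM/FGF against spheres, Snai2 alone was past them, as lower, and none was as higher (all genes 4.73% and 7.39%). Between SCDM/FGF and SCDM, Prrx2 and Snai1 were past them as higher and Snai2 as lower (all genes 5.73% and 4.04%). The median difference of the 10 factors was 0.16 between FIBCL and SCDM, -0.31 between FIBCL and SCDM/FGF and -0.62 between FIBCL and spheres, beside the all-gene medians of -0.07, -0.05 and -0.06 given above. A median near 0 between FIBCL and SCDM stood over differences from -2.42 to 1.88.

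Groups without overlap between their libraries were common among all genes as well. Between FIBCL and SCDM all 10 factors had groups that did not overlap, as had 74.7% of all tested genes. For FIBCL against SCDM/FGF this held for 8 factors (72.9% of all genes), and Prrx2 and Snai2 overlapped. For FIBCL against spheres it held for 9 (75.0%), with Snai1 overlapping. Among the other comparisons the groups were apart for 9 factors between SCDM and spheres (58.6% of all genes), 8 between SCDM/FGF and spheres (57.0%) and 6 between SCDM/FGF and SCDM (51.6%).

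The composition of the set was different in FIBCL. The summed level of the 10 factors was 332.5 ± 4.94 scaled TPM in spheres, 269.8 ± 12.8 in SCDM, 311.9 ± 10.3 under SCDM/FGF and 329.3 ± 7.57 in FIBCL (SD, n = 3). The place of FIBCL in this order depended on the scaling, since deposited TPM summed to 255.2 to 270.1 in FIBCL against 275.0 to 296.6 in SCDM. Shares of the sum do not depend on it. Twist1 took 9.63 ± 0.254% of the sum in spheres, 17.8 ± 1.25% in SCDM, 16.2 ± 0.319% under SCDM/FGF and 33.3 ± 1.73% in FIBCL. Prrx1 took 6.30 ± 0.0767%, 5.86 ± 0.195%, 7.54 ± 0.856% and 18.4 ± 0.465% in the same order of groups. Prrx2 took 14.4 ± 1.18%, 4.16 ± 0.843%, 10.2 ± 0.522% and 10.2 ± 0.556%, so its share in FIBCL was above that in SCDM only. Twist1, Prrx1 and Prrx2 together made up 30.3 ± 1.26% in spheres, 27.8 ± 2.13% in SCDM, 33.9 ± 0.983% under SCDM/FGF and 61.9 ± 2.10% in FIBCL. They were grouped because they were known to be high in FIBCL against SCDM. Their larger joint share in FIBCL than in SCDM was thus built into the choice, and nothing is read from it. Foxc1 and Foxc2 together made up 20.4 ± 0.323%, 26.9 ± 0.366%, 20.5 ± 0.590% and 3.75 ± 0.0438%. Zeb2, the largest single share in spheres at 17.1 ± 1.21%, was 8.05 ± 0.474% in FIBCL.

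**Figure D3:**
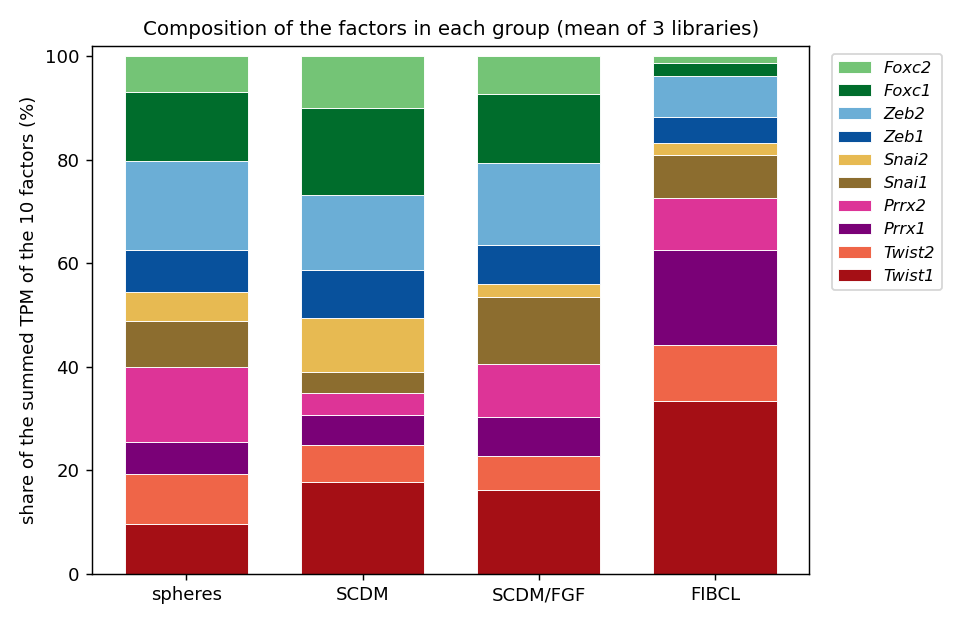
Share of each factor in the summed TPM of the 10 factors (vertical axis, percent) in each group, as means of 3 libraries. The Twist1 band widens from 9.63% in spheres to 33.3% in FIBCL, and the Foxc1 and Foxc2 bands together narrow from 20.4% to 3.75%.

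Across the 12 libraries, levels of the factors moved together in part. These correlations, of log2(scaled TPM + 1), describe libraries that fall into 4 groups and so mainly show the group means. Pearson's r was 0.99 between Foxc1 and Foxc2, 0.86 between Twist1 and Prrx1, 0.84 between Prrx2 and Snai1 and 0.83 between Zeb1 and Zeb2. It was 0.36 between Twist1 and Twist2, 0.43 between Prrx1 and Prrx2 and -0.78 between Snai1 and Snai2. Prrx1 against Foxc2 gave -0.97 and Twist1 against Zeb2 -0.92. The genes most like Twist1 among 8905 well expressed genes were Odc1, Gm29216 and 2510039O18Rik (r = 0.99 each), and 166 genes reached 0.95. For Prrx1 they were Pabpc1 (r = 0.994), Trim11 and Pfkp (0.992 each), with 297 genes at 0.95 or more. Prrx2 had only 12 such genes, led by Pip5k1b (0.973), Snn (0.971) and Chst2 (0.969). Zeb2 had 104, led by Ank2 (0.986), Tmem106b (0.984) and Ddr2 (0.983).

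Genes that work with or downstream of these factors were examined by lists, between FIBCL and SCDM. Of all tested genes, 13.2% were called higher and 16.1% lower in that comparison, or 9.30% and 23.3% with the deposited TPM. The first list held 15 genes: E proteins, which are dimer partners of Twist proteins, ID proteins, and other bHLH genes. ID proteins lack a basic region and take E proteins out of such dimers. Of the 15 genes 10 were tested, 3 rose and 1 fell (median -0.11). Id1 rose from 29.3 ± 1.62 scaled TPM in SCDM to 438.6 ± 24.5 in FIBCL (3.86 ± 0.10, limma adjusted p = 2.64e-11), and was 124.6 ± 9.77 in spheres and 29.8 ± 4.77 under SCDM/FGF. Id2 rose from 38.1 ± 3.78 to 141.4 ± 13.5 (1.87 ± 0.08, limma adjusted p = 1.86e-09). The third was Tcf15 (1.78), a bHLH factor of somites, named after its value was seen. Its mean was 2.66 scaled TPM in FIBCL and at most 0.114 in the other groups, so it passed the minimum level only through FIBCL. The tendon bHLH factor Scx fell from 59.0 ± 4.47 to 1.45 ± 0.343 (-4.62 ± 0.14, limma adjusted p = 1.04e-10), and was already low under SCDM/FGF at 7.73 ± 1.68. The E proteins themselves differed by less than the limit of 1: Tcf3 by -0.63 ± 0.05, Tcf4 by -0.29 ± 0.07 and Tcf12 by 0.50 ± 0.05. Id3 differed by -0.25 ± 0.09 and Id4 by 0.02 ± 0.11. With the deposited TPM the split of this list was 3 higher and 2 lower, as Tcf3 reached -1.02.

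Corepressors and stability regulators of Snail and Zeb proteins moved little. Of 24 genes, all tested, 1 rose and 2 fell (median 0.22, all genes 13.2% and 16.1%), and with the deposited TPM none rose and 2 fell. Csnk1e, a casein kinase, was the one that rose, from 36.7 ± 3.19 to 94.8 ± 3.60 scaled TPM (1.35 ± 0.07, limma adjusted p = 8.64e-09), and its difference was 0.95 on the deposited scale. The phosphatase gene Ctdsp1 (-1.21 ± 0.07) fell, as did the kinase gene Lats2 (-1.03 ± 0.08), which left the call without FIBCL replicate 3 (-0.986) or SCDM replicate 2 (-0.999). The corepressor genes Ctbp1 (0.29 ± 0.05) and Ctbp2 (-0.47 ± 0.06), the histone demethylase gene Kdm1a (0.43 ± 0.05) and Gsk3b (0.73 ± 0.08), whose kinase Chir99021 inhibits, stayed under the limit, and Ctbp1 turned to -0.11 on the deposited scale.

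Mesenchymal structural genes (36, all tested) fell in 29 cases and rose in 4 between SCDM and FIBCL, with a median of -3.56. Of all tested genes 16.1% fell and 13.2% rose. Several members of this list were already known from these libraries to be low in FIBCL, so the count is not independent evidence of its direction. Postn, a matrix protein of fibroblasts, fell from 1722.2 ± 70.5 to 0.625 ± 0.121 scaled TPM (-10.05 ± 0.11, limma adjusted p = 4.46e-14). Col3a1 (-9.09 ± 0.16) and Col1a2 (-8.53 ± 0.07), fibrillar collagen genes, fell as well. Vim, the intermediate filament gene often read with EMT, fell from 1713.3 ± 21.2 to 788.8 ± 46.9 (-1.12 ± 0.05) and Fn1, fibronectin, from 3193.3 ± 314.6 to 1259.7 ± 24.2 (-1.34 ± 0.08). The 4 that rose were Cd44 (2.11 ± 0.05), a hyaluronan receptor, Cdh2 (1.31 ± 0.05), N-cadherin, which neurons also carry, Loxl2 (1.27 ± 0.05), a lysyl oxidase, and Itgb1 (1.01), an integrin named after its value was seen. Itgb1 left the call without FIBCL replicate 1 (0.980) or SCDM replicate 3 (0.997). On the deposited scale 1 rose and 29 fell, with Cdh2 at 0.91 and Loxl2 at 0.87. Of the 10 fibroblast markers summed above, 6 (Col1a1, Col1a2, Col3a1, Dcn, Lum and Pdgfra) are also in this list, so that sum is no separate measure beside it. The other 4 (Pou3f4, Tbx18, Coch and Slc26a4) summed to 293.2 to 311.1 scaled TPM in the spheres, 181.3 to 197.8 in SCDM, 151.2 to 171.4 under SCDM/FGF and 53.3 to 57.2 in FIBCL, and the part of that cell type was not tested. By the call rule Pou3f4 and Tbx18 were lower in FIBCL than in SCDM, Coch was higher, and Slc26a4 was below the level for a test.

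Epithelial genes, the textbook targets of Snail and Zeb repression, were in part higher in FIBCL. Of 46 such genes 23 were tested, and 14 rose and 2 fell (median 1.41, all genes 13.2% and 16.1%), a count over genes that in part passed the minimum level only through FIBCL. Spint1, a protease inhibitor of epithelia, was at 0.0346 ± 0.0599 scaled TPM in SCDM and 37.9 ± 1.51 in FIBCL (5.23 ± 0.13, limma adjusted p = 2.56e-11). The desmosome gene Dsp (4.91 ± 0.09) reached 29.3 ± 1.26, the tight junction gene F11r (4.38 ± 0.14) 45.8 ± 0.892 and Epcam (3.45 ± 0.17) 13.2 ± 0.722. Cdh1, E-cadherin, did the opposite: it was 8.77 ± 0.488 in SCDM, 1.71 ± 0.105 in spheres, 0.125 ± 0.0995 under SCDM/FGF and 0.411 ± 0.197 in FIBCL (FIBCL against SCDM -2.80 ± 0.12, limma adjusted p = 1.94e-09). The other gene that fell was Muc1 (-1.0), at 1.45 scaled TPM in SCDM, named after its value was seen. It left the call without FIBCL replicate 2 (-0.947), FIBCL replicate 3 (-0.944) or SCDM replicate 1 (-0.830). Cdh1 was highest in SCDM, the group in which Snai1 was lowest and Snai2 highest. Whether these levels are linked was not tested.

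Other mesenchymal transcription factors numbered 54, of which 45 were tested, 10 rose and 19 fell between SCDM and FIBCL (median -0.54, all genes 13.2% and 16.1%). Scrt1, a neuronal relative of the Snail family, rose from 0.0125 ± 0.0108 to 7.35 ± 0.704 scaled TPM (3.04 ± 0.09, limma adjusted p = 1.31e-10). Shox2 (3.02 ± 0.14), a homeobox gene of limb and some sensory neurons, reached 7.46 ± 0.896. Alx1, a paired-type homeobox gene of craniofacial mesenchyme, was at 5.78 ± 0.140 in FIBCL and listed at 0 in every library of the other groups. Among those that fell were Meox1 (-3.72 ± 0.11), a somite homeobox gene, from 12.5 ± 0.921 to 0.0262 ± 0.0455, and the forkhead genes Foxp2 (-3.58 ± 0.07), from 34.3 ± 1.30 to 1.94 ± 0.0155, and Foxd1 (-3.20 ± 0.09), from 31.4 ± 2.19 to 2.53 ± 0.240.

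Ligands, receptors and signal genes of skeletal and cranial mesenchyme (24, all tested) rose in 4 cases and fell in 4 (median -0.34), and on the deposited scale in 4 and 8. These counts stood beside 13.2% and 16.1% of all tested genes, or 9.30% and 23.3% on the deposited scale, and nothing is read from them. Fgfr2, a receptor of FGF ligands, rose from 360.0 ± 41.8 to 3245.1 ± 843.2 scaled TPM (3.14 ± 0.27, limma adjusted p = 8.99e-07), with a wide spread between the FIBCL libraries. Smad7 (1.82 ± 0.22), an inhibitor of TGF-beta signalling, Bmp2 (1.47 ± 0.12) and Gli2 (1.41), a hedgehog factor named after its value was seen, rose as well. Those that fell were Bmp5 (-3.50 ± 0.08), Tgfb3 (-2.08 ± 0.09), the hedgehog target Gli1 (-2.01 ± 0.17) and Bambi (-1.32), a BMP pseudoreceptor gene named after its value was seen.

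**Figure D4:**
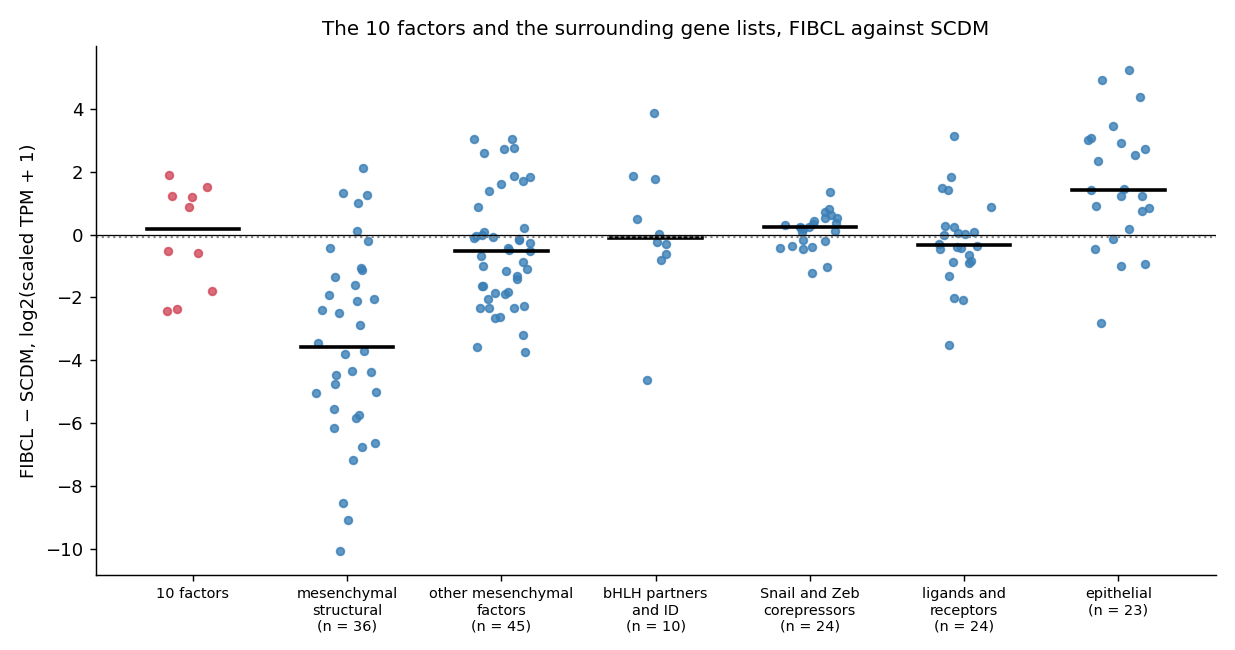
Difference between FIBCL and SCDM in log2(scaled TPM + 1) (vertical axis) for the 10 factors (red) and the tested genes of 6 lists (blue). Each point is a gene, black bars are medians, and the dotted line is the median of all tested genes (-0.07). Mesenchymal structural genes have a median of -3.56 and epithelial genes of 1.41, while the 10 factors run from -2.42 to 1.88.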

How the data were processed

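Poly(A) RNA of 12 libraries (3 per group) was analysed. The authors deposited 1 table of TPM values with 2 decimals, which the methods attribute to trimming with SeqPrep and Sickle, alignment with TopHat and quantification with RSEM. The submitters' processing notes also name Cufflinks, and the genome build is not given in the sources used here. The columns of the FIBCL libraries are headed FIBC, a name the study also uses for the mix without LIF. How RSEM divided reads between similar parts of paralogs was not examined.

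Each library was scaled by the trimmed mean (30% from each end) of its log2 ratios to the mean over the 8434 genes that no library listed under 5 TPM. The 16016 genes that reached 1 TPM in 3 or more libraries were fitted as log2(scaled TPM + 1), a scale that understates changes of low genes, with limma 3.58.1 (R 4.3.3) in 1 model of the 4 groups with a mean-variance trend and Benjamini-Hochberg adjustment. Genes were called at an adjusted p under 0.05 and a difference of at least 1. Count models were not used because the table holds TPM. The fit was tested on simulated data. Nothing in the labels says which spheres gave which culture, so p-values measure only the spread between these libraries.

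The 10 factors, the gene lists and the rule for named genes were chosen with earlier results of these data known. Named list genes were up to 3 of the highest and 3 of the lowest called differences between FIBCL and SCDM with at least 5 scaled TPM in the higher group, plus a set named whatever its values (Cdh1, Epcam, Vim, Cdh2, Fn1, Tcf3, Tcf4, Tcf12, Id1 to Id4, Ctbp1, Ctbp2, Kdm1a, Gsk3b). Genes most like a factor were the 3 with the highest Pearson r among tested genes with a mean of at least 10 scaled TPM. Positions came from GENCODE M21 (GRCm38), where 55141 of the 55487 gene IDs matched, and promoter windows from RefSeq (GRCm38.p6). Other scalings, pseudocounts, filters, call limits, a replicate block and leaving out each library were tried as alternatives.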

Additional observations from a re-analysis of the deposited data

How the results depend on the processing

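Counts and differences were recomputed with the deposited TPM, other scalings, other pseudocounts and filters, other call limits and without each library. Of the recomputed counts of called genes, 274 were within 1.5 times the reported count and 14 were not. The 60 recomputed shares moved by less than 1 SD, an outcome fixed in advance. Shares do not depend on the scaling, and leaving out 1 of 3 libraries cannot move a group mean by 1 SD. Of the recomputed differences of the factors and named genes, 2113 kept direction and call or moved by less than 1 SD, and 73, all of the factors, moved by more, 49 of them with the deposited TPM. Named genes lost a call in 6 cases, gained one in 1 and changed sign in 4. With the adjusted p alone, without a limit on size, the factors past the threshold were 8 between FIBCL and SCDM/FGF (4 reported), 7 between SCDM and spheres (2), 5 between SCDM/FGF and spheres (1) and 6 between SCDM/FGF and SCDM (3), and the lists gave 9 for bHLH partners and ID inhibitors (4), 20 for corepressors (3) and 18 for ligands and receptors (8). With a limit of 1.5 they were 2, 1 and 0 for the first 3 of these comparisons and 3 between FIBCL and spheres (6), with 0 for corepressors and 5 for ligands and receptors. A minimum of 5 TPM left 10 epithelial genes called (16). Id4 changed sign with the deposited TPM (-0.16) and without single libraries (from -0.02 to 0.09), and Ctbp1 with the deposited TPM (-0.11). Leaving out single libraries changed none of the counts of called factors. Deviations of same-numbered replicates gave r from -0.121 to 0.098 over 18 pairs, against -0.073 to 0.120 over 36 pairs with different numbers. This check cannot tell whether same-numbered libraries came from the same spheres. A replicate block left 7 factors called between FIBCL and SCDM, 4 between FIBCL and SCDM/FGF and 6 between FIBCL and spheres, and changed no count of called genes. Tests on counts were not run, since the table holds TPM. Depth is unknown, so the precision of low values could not be stated.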
